A study of Mus musculus with 20 samples.

Results

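Sall4, Sall1 and Tdh are early markers of the return to pluripotency, and their chromatin was followed while fibroblasts were reprogrammed. The 3 genes were chosen by name out of 21938 protein-coding genes of the annotation, and each was described by the peaks called around it. SALL4 and SALL1 are zinc-finger transcription factors of the spalt family. SALL4 works with OCT4 and NANOG in pluripotent cells, and SALL1 is also needed for kidney development. TDH is threonine dehydrogenase, a mitochondrial enzyme that mouse embryonic stem cells use to break down threonine into glycine and acetyl-CoA. H3K27me3, trimethylation of lysine 27 on histone H3, is laid down by Polycomb complexes and lies over silent developmental genes. JMJD3, encoded by Kdm6b, is a demethylase that removes it. KLF4 is a zinc-finger activator and one of the factors used to reprogram cells.

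The peak lists were made by ChIP-seq (sequencing of DNA that an antibody pulls down with a chromatin protein) from mouse embryonic fibroblasts (MEFs) and of cells derived from them. There were 10 H3K27me3 lists, from untreated MEFs and from day 5 and day 10 of reprogramming, 2 KLF4 lists and 2 JMJD3 lists. The labels give strain C57BL/6J-OG2 for wild-type (WT, Jmjd3+/+) cells and strain C57Bl6J for knockout (KO, Jmjd3-/-) cells, and by the labels genotype and strain cannot be told apart. The study describes its WT and KO fibroblasts for another assay as littermates without the OG2 reporter, and whether those were the cells used here was not stated. All cells at day 5 and day 10 had received viruses for Oct4, Sox2, Klf4 and c-Myc (OSKM) and, by the protocol, vitamin C. They carried, in addition, a FLAG control or Jmjd3 overexpression, and are called FLAG cells and JMJD3 cells here. The KLF4 lists were from day 5 WT cells with FLAG or Jmjd3. The JMJD3 lists were from day 5 WT cells given FLAG-tagged JMJD3 and precipitated with an anti-FLAG antibody, with OSKM or with a low dose of KLF4 (OSlowKM). Each group had 1 library, so no difference below has a replicate check and no p-value was computed. Reprogramming cultures are mixtures, and a missing peak cannot be told apart between fewer marked cells and less mark per cell.

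The H3K27me3 lists held 3045 to 6954 peaks, each 1000 bp wide. Their score came from the peak caller, from 6.56 up to a ceiling of 200. Its scale was not stated, so each score is given with its percentile, the percent of peaks in the same list with a lower score. A gene without a peak had none that passed the caller's threshold, which is not a measurement of no mark. H3K27me3 peaks lay near the transcription start site (TSS) of 1 of 10 fibroblast genes (Thy1) in WT MEFs, against 14.6% of all genes, while KO MEFs had 0 of 10, against 10.3%. The reprogramming lists had 0 to 3 of 10, so these counts do not check the MEF label. The list held the collagen genes Col1a1, Col1a2 and Col3a1 among others. Kdm6b itself had no H3K27me3 peak in the 6 lists without exogenous Jmjd3, and its deletion could not be checked from such lists. A peak in Kdm6b was called in 3 of the 4 JMJD3 lists and not in that of day 10 WT JMJD3 cells, on which the day 10 WT differences rest.

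All 3 genes are on the minus strand (GRCm38). Sall4 (ENSMUSG00000027547.17) lies on chromosome 2 from 168748332 to 168767943, with TSSs at 168767201 and 168767029. Sall1 (ENSMUSG00000031665.7) lies on chromosome 8 from 89027235 to 89044162, and its TSS is at 89044162. Tdh (ENSMUSG00000021953.14) lies on chromosome 14 from 63492347 to 63509092, and its TSS is at 63509092.

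The KLF4 peaks and JMJD3 positions at the study's enhancers and within the genes marked 5 sites, whose sequences are shown because the binding results turn on them. Each is the window of 200 bp around the midpoint, on the plus strand of the RefSeq GRCm38.p6 genome. Capitals mark matches to 4 motifs searched on both strands, GGGNGTGG (KLF), ATGCNAAT (OCT), CATTGTT or CTTTGTT (SOX) and TGANTCA (AP-1). No match overlapped another. A window without capitals held none of these letters.
Sall4 distal enhancer, chr2:168841562-168841761: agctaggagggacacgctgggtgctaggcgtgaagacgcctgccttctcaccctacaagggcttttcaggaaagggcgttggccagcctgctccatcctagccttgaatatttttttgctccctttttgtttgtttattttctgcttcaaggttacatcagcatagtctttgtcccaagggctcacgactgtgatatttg
Sall1 far downstream enhancer, chr8:89006636-89006835: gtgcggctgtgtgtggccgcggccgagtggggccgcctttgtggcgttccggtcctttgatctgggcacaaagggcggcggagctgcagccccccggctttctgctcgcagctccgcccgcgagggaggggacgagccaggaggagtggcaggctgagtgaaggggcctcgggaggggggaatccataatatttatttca
Sall1 nearer downstream enhancer, chr8:89015651-89015850: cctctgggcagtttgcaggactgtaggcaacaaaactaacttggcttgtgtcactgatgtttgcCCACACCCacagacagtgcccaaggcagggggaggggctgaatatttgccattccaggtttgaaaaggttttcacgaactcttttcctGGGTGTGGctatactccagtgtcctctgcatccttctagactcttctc
Sall1 intron, chr8:89041923-89042122: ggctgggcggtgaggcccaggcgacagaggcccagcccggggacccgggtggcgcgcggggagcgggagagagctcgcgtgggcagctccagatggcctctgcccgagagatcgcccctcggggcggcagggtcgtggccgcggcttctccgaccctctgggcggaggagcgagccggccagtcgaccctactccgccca
Tdh intronic enhancer, chr14:63500380-63500579: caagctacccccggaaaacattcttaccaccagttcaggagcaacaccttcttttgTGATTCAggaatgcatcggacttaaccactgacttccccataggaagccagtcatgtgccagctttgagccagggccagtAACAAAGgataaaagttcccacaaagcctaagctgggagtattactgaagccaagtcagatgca

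H3K27me3 near the TSS was the first question. A peak within 5 kb of a TSS was called in 9 of 10 lists at Sall4, in 9 of 10 at Sall1 and in 4 of 10 at Tdh. Of all protein-coding genes, 6.91% had a peak in 9 or more lists and 13.6% in 4 or more. Sall4 and Sall1 were both without a peak in a single list, that of day 10 WT JMJD3 cells. This was also the shortest list, with 3045 peaks against 5131 in day 10 WT FLAG cells.

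All 3 genes had a TSS peak in WT MEFs, where 14.6% of genes did. In KO MEFs 2 of 3 had one, Sall4 and Sall1, against 10.3% of genes. At day 5 all 3 had one in WT FLAG cells (14.7% of genes), 2 of 3 in WT JMJD3 cells (11.0%), and all 3 in KO FLAG cells (13.7%) and KO JMJD3 cells (13.0%). At day 10, 2 of 3 had one in WT FLAG cells (12.1%), 0 of 3 in WT JMJD3 cells (8.26%), and 2 of 3 in KO FLAG cells (12.8%) and KO JMJD3 cells (11.7%). Tdh was the gene without a peak wherever 2 of 3 had one.

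Sall4 had the highest score of the 3 genes in 7 of the 9 lists where it had a peak, and Sall1 had it in KO MEFs and day 10 KO JMJD3 cells. In MEFs its best score near the TSS was 67.06 with the WT genotype (percentile 93.3) and 12.95 with the KO (61.2). In day 5 WT cells it was 70.84 with FLAG (94.8) and 21.51 with JMJD3 (72.7). In day 5 KO cells it was 51.34 with FLAG (94.4) and 70.88 with JMJD3 (91.0). Among genes with a TSS peak, Sall4 thus stood above 90.5% in WT FLAG cells and above 57.4% in WT JMJD3 cells, compared with 90.7% and 82.9% in KO cells. At day 10 the best score was 10.24 in WT FLAG cells (48.3), no peak was called in WT JMJD3 cells, and KO cells had 23.4 with FLAG (84.6) and 8.19 with JMJD3 (27.1).

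These Sall4 peaks sat just inside the gene. Their centres lay between 26 and 1012 bp downstream of the nearer TSS. A single stretch of 2158 bp, from 168765518 to 168767675, held the best peak of all 9 lists. KO MEFs had 3 further weak peaks in the gene, with scores of 7.07 to 7.2, so that 3650 bp within 5 kb of the TSSs were covered in KO MEFs against 2000 bp in WT MEFs.

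The best Sall1 peak scored 19.41 in WT MEFs (percentile 67.2), and KO MEFs had 20.9 (81.8). At day 5 it scored 16.26 with FLAG and 14.34 with JMJD3 in WT cells, at percentiles 57.9 and 58.6. KO cells had 16.47 and 19.18, at 61.6 and 63.3. The rank within the list at day 5 thus differed between FLAG and JMJD3 by 0.76 percentile points for WT and 1.67 for KO. A drop shared by all peaks would not show in these ranks. By day 10 the score was 9.94 in WT FLAG cells (46.1), with no peak in WT JMJD3 cells, and it was 19.85 and 9.21 in KO FLAG and KO JMJD3 cells (79.3 and 36.8).

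The Sall1 peaks stood on both sides of the TSS rather than over it. The upstream stretch, with peak centres 1229 to 2301 bp before the TSS, was called in 9 lists. The stretch within the gene, 2449 to 3471 bp after the TSS, was called in 4 lists, namely both MEF lists and both day 5 WT lists. Its scores were 16.24 in WT MEFs, 20.9 in KO MEFs, 13.52 in day 5 WT FLAG cells and 6.84 in day 5 WT JMJD3 cells. No list had a peak over the 250 bases before the TSS (0 of 10), which RefSeq (GRCm38.p6) gives, written 5′ to 3′ along the gene with a KLF match in capitals, as
Sall1 promoter, chr8:89044163-89044412, minus strand: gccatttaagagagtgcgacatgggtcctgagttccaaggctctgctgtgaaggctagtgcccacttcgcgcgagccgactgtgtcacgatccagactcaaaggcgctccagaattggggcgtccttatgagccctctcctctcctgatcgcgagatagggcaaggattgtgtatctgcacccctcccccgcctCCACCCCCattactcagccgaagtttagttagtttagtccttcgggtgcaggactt
This stretch had a GC content of 56.4% and held 13 CG pairs. A KLF match in the same 250 bases was found in 15.9% of 32851 promoters. Neither KLF4 list had a peak over it.

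Tdh had a TSS peak only before or at day 5. It scored 23.41 in WT MEFs (percentile 72.1), and no peak was called in KO MEFs. At day 5 the score was 18.89 in WT FLAG cells (63.1), with no peak in WT JMJD3 cells. KO cells had a peak under both vectors, with 11.87 for FLAG (47.5) and 16.92 for JMJD3 (59.3). None of the 4 day 10 lists had one. The 4 peaks shared 369 bp, from 63508465 to 63508833, next to the TSS.

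**Figure D1:**
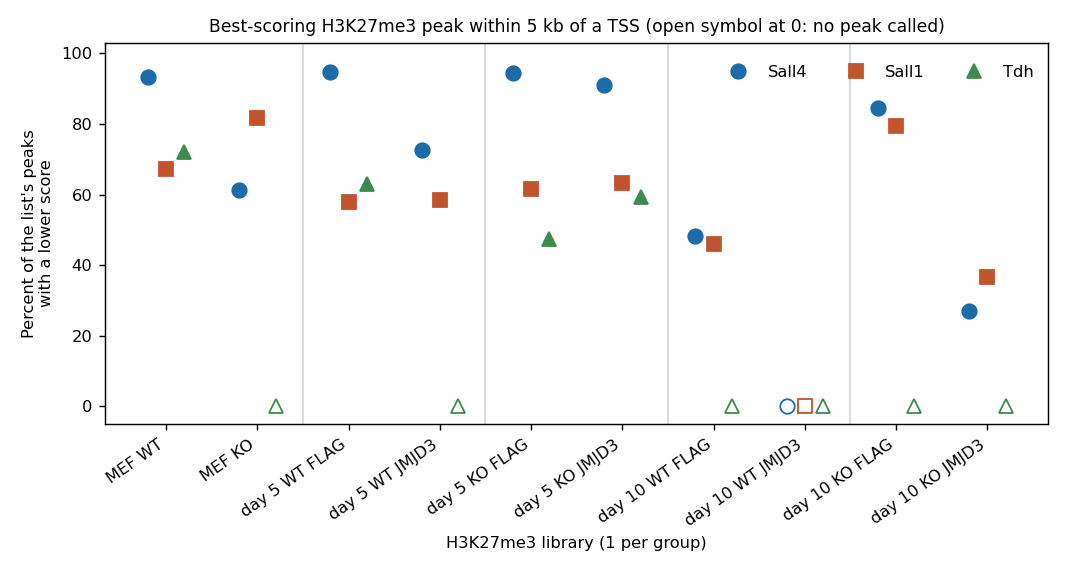
For each of the 10 H3K27me3 libraries (x axis), the percent of peaks in that list that scored lower than the gene's best peak within 5 kb of a TSS (y axis), with circles for Sall4, squares for Sall1 and triangles for Tdh. Open symbols at 0 mark genes with no peak, which are all 3 genes in day 10 WT JMJD3 cells and Tdh also in KO MEFs, day 5 WT JMJD3 cells and the other day 10 lists.

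The FLAG and JMJD3 lists were then compared at each day and genotype. In day 5 WT cells 1 of the 3 genes with a FLAG peak, Tdh, had none with JMJD3, and 31.8% of 3230 genes with a FLAG peak behaved so. In day 5 KO cells 0 of 3 did (20.5% of 2996 genes). In day 10 WT cells both genes with a FLAG peak, Sall4 and Sall1, had none with JMJD3, where the share over all 2660 genes was 41.3%. In day 10 KO cells 0 of 2 did (25.1% of 2806 genes). Counts of 3 genes are too small to set apart from these shares. With all lists cut to the 3045 best-scoring peaks, the day 10 KO count was 2, as in day 10 WT cells, and with the lower-scoring 50% of peaks left out it was 2 against 0 in WT cells.

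How high the FLAG peak scored went with whether a JMJD3 peak was called, over all genes. In day 5 WT cells 69.3% of genes in the lowest quartile of FLAG scores had no JMJD3 peak, 40.5% in the next, 15.0% in the third and 2.35% in the highest. Tdh and Sall1 were in the second quartile and Sall4 in the highest. In day 10 WT cells, where Sall4 and Sall1 were both in the second quartile, 50.5% of genes in that quartile had no JMJD3 peak. In day 10 KO cells Sall1 was in the third quartile and Sall4 in the highest, where 12.0% and 2.85% had none.

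**Figure D2:**
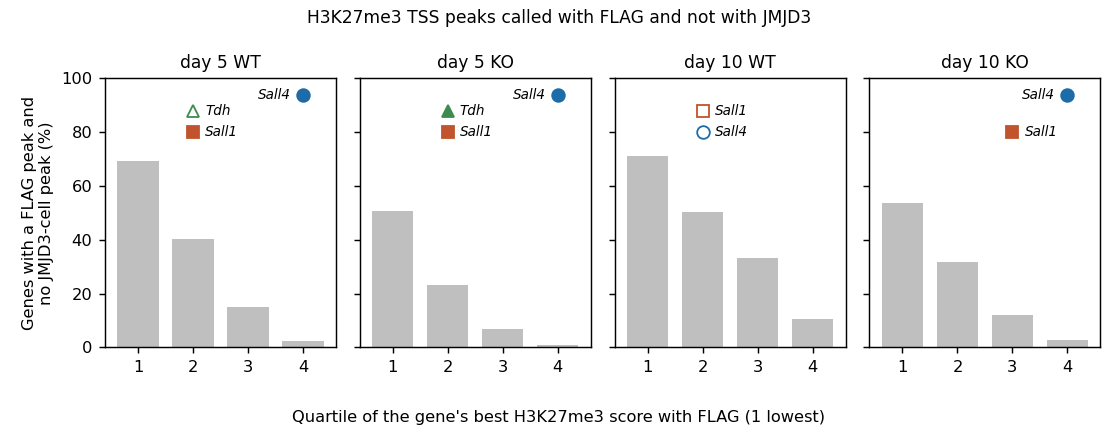
Bars give the percent of genes with a FLAG H3K27me3 peak near the TSS that had none in JMJD3 cells (y axis), by quartile of the gene's best FLAG score (x axis, 1 lowest), in 4 panels for day and genotype. Symbols name the quartile of Sall4, Sall1 and Tdh, open where no JMJD3 peak was called; their height has no meaning, and the 3 open symbols are all in the second quartile.

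The direction of the best score at day 5 differed between genotypes. The score was lower with JMJD3 than with FLAG in WT cells and higher in KO cells for 3 of 3 genes. This held for 43.6% of the 2653 genes with a peak in both FLAG lists. By percentile, which sets each score against its own list, only Tdh did so (1 of 3), compared with 27.4% of genes. Sall4 dropped by percentile in both genotypes, from 94.8 to 72.7 in WT and from 94.4 to 91.0 in KO cells. At day 10 the percentile was lower with JMJD3 in both genotypes for Sall4 and Sall1 (2 of 2 genes with a FLAG peak in both), and for 49.1% of 2171 genes.

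Peaks farther away widened the comparison to the gene and 50 kb on each side. Of 10 FLAG peaks around the 3 genes in day 5 WT cells, 6 had no JMJD3 peak within 1 kb (43.5% of all 6428 FLAG peaks). These were 4 of 4 at Tdh, 2 of 4 at Sall1 and 0 of 2 at Sall4. In day 5 KO cells 3 of 7 had none (31.1% of all), in day 10 WT cells 2 of 2 (57.1%) and in day 10 KO cells 0 of 4 (42.0%). Tdh had 3 peaks downstream of the gene in day 5 WT FLAG cells, all with low scores of 7.61 to 8.29, and no other list had a peak at those places.

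Study amplicons, the short stretches amplified by the study's primer pairs for ChIP followed by PCR, gave a second way to place the enhancers of the 3 genes. Each of 27 listed pairs matched 1 place in the genome. The pair listed as the first in the Sall4 gene body matched chromosome 8 from 89028074 to 89028194, in an untranslated exon of Sall1, and was identical to a Sall1 pair. It was the only pair (1 of 27) that matched another gene than the one it was listed for.

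The Sall4 enhancer amplicons were far from the gene. That for H3K27me3 spanned 168840921 to 168841070 on chromosome 2, centred 73794 bp upstream of the nearer TSS and outside the window of 50 kb. H3K27me3 peaks formed a stretch there from 168839768 to 168841375 in 6 of 10 lists. In MEFs these were strong, with a score of 36.1 in WT (percentile 82.1) and 28.47 in KO (90.9). At day 5 WT cells had 13.25 with FLAG (50.2) and 7.44 with JMJD3 (16.5), and KO cells had 15.21 with FLAG (58.3) and no peak with JMJD3. At day 10 only KO FLAG cells had a peak, of 8.21 (28.8). This stretch was called in both MEF lists, in 3 of 4 FLAG lists and in 1 of 4 JMJD3 lists, and the shares of all FLAG peaks without a JMJD3 peak within 1 kb are those given above. The amplicon itself was overlapped by the peaks of 5 lists, those of both MEF lists, day 5 WT JMJD3, day 5 KO FLAG and day 10 KO FLAG cells. The day 5 WT FLAG peak ended before it, at 168840767, so at the amplicon the day 5 WT peak was called with JMJD3 and not with FLAG.

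A different stretch upstream of Sall4 did not share this pattern. It ran from 168809026 to 168810670, 42647 bp before the TSS at its centre, and was called in 7 of 10 lists. At day 5 its score was 19.36 with FLAG and 18.81 with JMJD3 in WT cells (percentiles 63.9 and 68.8) and 20.49 and 28.31 in KO cells (69.8 and 73.8). In WT MEFs it scored 7.08, and KO MEFs had no peak.

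KLF4 and JMJD3 met at the Sall4 enhancer. The second enhancer pair, for KLF4 and JMJD3, spanned 168841506 to 168841682. A KLF4 peak lay over it in both lists, 293 bp wide in FLAG cells and 321 bp in JMJD3 cells, and the OSKM JMJD3 list had a position at 168841713. The peaks stood 748 bp from the H3K27me3 peak in FLAG cells and 138 bp from it in JMJD3 cells, and no H3K27me3 peak of any list overlapped them. The sequence printed above for this enhancer held no match to any of the 4 motifs.

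Within 50 kb of Sall4 the binding was at another gene's promoter. KLF4 peaks at 168741348 to 168741578 and 168742164 to 168742370, called in JMJD3 cells alone, had their midpoints 337 and 134 bp from a TSS of Atp9a, a phospholipid-transporting ATPase. The JMJD3 position at 168741597 was 203 bp from an Atp9a TSS. FLAG cells had 0 KLF4 peaks within 50 kb of Sall4.

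**Figure D3:**
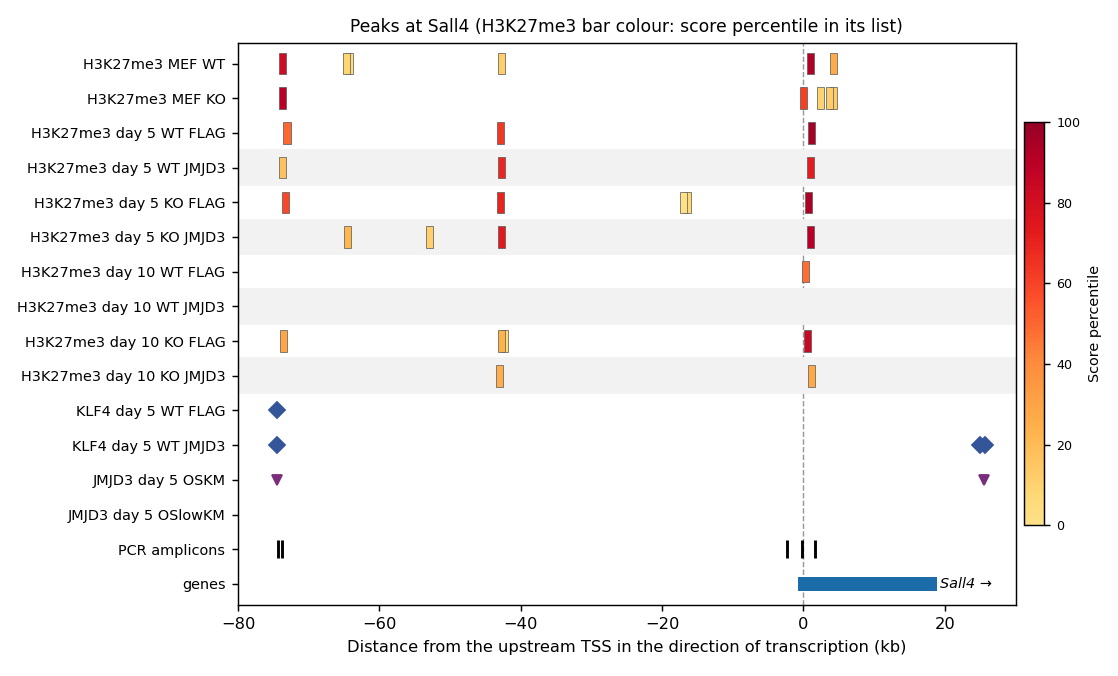
Peaks around Sall4 by distance from its upstream TSS in kb, negative before the gene (x axis), with a row for each library (JMJD3 cells shaded), for the study's PCR amplicons other than those of the gene body, and for the gene. Bars are H3K27me3 peaks, darker with a higher score percentile, diamonds KLF4 peaks and triangles JMJD3 positions; KLF4, JMJD3, amplicons and H3K27me3 gather around 73794 bp upstream, and further H3K27me3 bars stand at the TSS.

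Sall1 had 2 enhancers downstream of the gene, and they differed in their marks. The far enhancer was covered by amplicons at 89007195 to 89007368 and 89006531 to 89006700, centred 36881 and 37547 bp after the TSS. An H3K27me3 stretch from 89006164 to 89007963 was called there in 4 lists. It scored 26.52 in WT MEFs, 15.09 in KO MEFs, 12.07 in day 5 WT FLAG cells and 15.49 in day 5 KO FLAG cells. At day 5 neither JMJD3 list had a peak there, and 43.5% of all FLAG peaks in WT and 31.1% in KO cells had no JMJD3 peak within 1 kb. At day 10 none of the 4 lists had one, with either vector. A JMJD3 position of the OSKM list at 89006735 lay inside the peaks of 3 lists, those of WT MEFs, KO MEFs and day 5 KO FLAG cells. No KLF4 peak was called at this enhancer.

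The nearer Sall1 enhancer had binding calls and no called H3K27me3 peak. Its amplicon spanned 89015699 to 89015891, and a KLF4 peak at 89015567 to 89015922 and a JMJD3 position at 89015750 lay over it. The KLF4 peak was called in JMJD3 cells alone. H3K27me3 overlapped the amplicon in 0 of 10 lists. The printed window held 2 KLF matches, at 89015715 to 89015722 and 89015803 to 89015810.

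The remaining Sall1 binding lay within the gene and farther downstream. A KLF4 peak in JMJD3 cells at 89041915 to 89042129 lay in the intron, 2140 bp after the TSS, in sequence with a GC content of 76.5%. It overlapped H3K27me3 peaks of KO MEFs and day 5 WT FLAG cells, and the nearest H3K27me3 peak of day 5 WT JMJD3 cells was 724 bp away. Farther downstream, KLF4 peaks were called with both vectors, at 88991839 to 88992163 with FLAG and 88991963 to 88992254 with JMJD3, beside a JMJD3 position at 88992244. The other JMJD3 position, at 89003797, had no KLF4 peak.

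**Figure D4:**
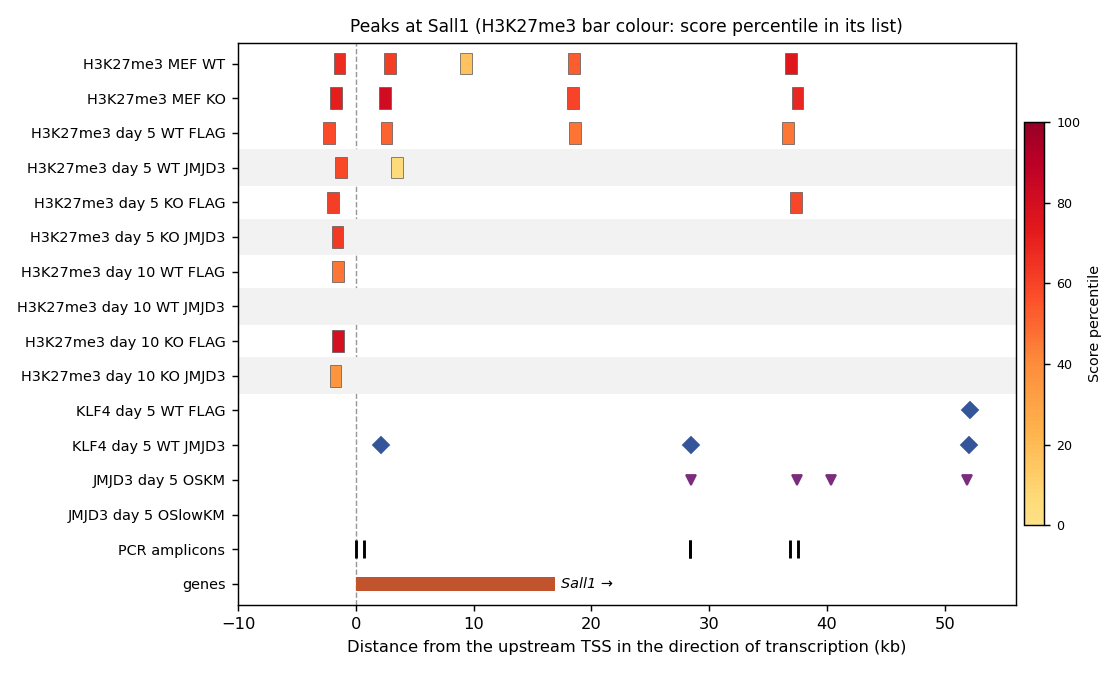
Peaks around Sall1 by distance from its TSS in kb, positive into and past the gene (x axis), with rows, colours and symbols as for the Sall4 map. H3K27me3 bars centred 37099 bp after the TSS appear in both MEF lists and both day 5 FLAG lists, and in no day 5 JMJD3 list and no day 10 list of either vector, while KLF4 (diamond) and JMJD3 (triangle) meet 28412 bp after the TSS, where no H3K27me3 bar stands.

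Tdh carried its binding in an intron. A KLF4 peak at 63500287 to 63500469, 8714 bp after the TSS, was called in JMJD3 cells alone, and a JMJD3 position lay at 63500479. Amplicons for JMJD3 (63500324 to 63500508) and KLF4 (63500409 to 63500517) covered the place. The H3K27me3 amplicon, at 63499789 to 63499936, was overlapped by 0 of 10 H3K27me3 lists, and the nearest H3K27me3 peak of day 5 WT FLAG cells was 7365 bp from the KLF4 peak, at the TSS. The printed window held an AP-1 match and a SOX match, and RefSeq places an exon of a predicted non-coding RNA on the plus strand over it. The other KLF4 peak within 50 kb, called with both vectors, was 193 bp from a TSS of Mtmr9, a myotubularin-related gene, in FLAG cells and 160 bp from it in JMJD3 cells.

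**Figure D5:**
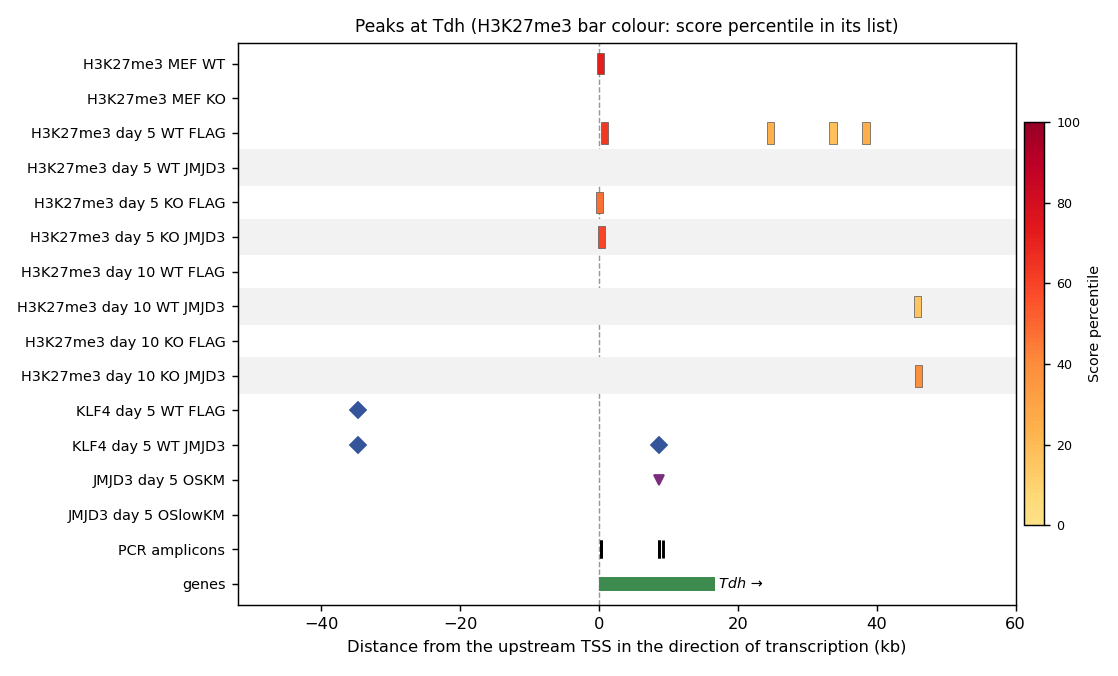
Peaks around Tdh by distance from its TSS in kb, negative before the gene (x axis), with rows, colours and symbols as for the Sall4 map. H3K27me3 bars stand at the TSS in 4 lists, and KLF4 (JMJD3 cells) and JMJD3 meet within the gene 8714 and 8613 bp after the TSS.

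Counted over the gene and 50 kb on each side, KLF4 peaks were called at 2 of 3 genes with FLAG (59.5% of all genes) and at 3 of 3 with JMJD3 (67.2%). The numbers were 0 and 2 at Sall4, 1 and 3 at Sall1, and 1 and 2 at Tdh. All 3 genes thus had more KLF4 peaks with JMJD3, as had 36.9% of all genes, and the JMJD3 list was the longer, with 14391 peaks against 10655. In the wider 50% of each list this difference was absent. Sall4 was the 1 gene without a KLF4 peak in this window in FLAG cells, and 23.4% of 8874 such genes had one in JMJD3 cells. Its 2 peaks with JMJD3 were those at the Atp9a promoter. The KLF4 peak at the Sall4 enhancer was called with both vectors and lies outside the window. Of 7 KLF4 sites in all, 2 were common to both lists and 5 were called in JMJD3 cells alone. The same split over all KLF4 sites was not computed, so these counts have no background to be read against. The paper reports that most KLF4 peaks were shared between the empty vector and JMJD3. Most of the 5 sites called in JMJD3 cells alone were narrow. The Tdh peak of 183 bp had the smallest width of the whole list, and 25.4% or fewer of the peaks in the list were narrower than each of the pair at Atp9a and the Sall1 intron peak. The peak at the nearer Sall1 enhancer, 356 bp wide, exceeded 68.3% of its list.

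JMJD3 positions with OSKM were called at 3 of 3 genes (55.6% of all genes), 1 at Sall4, 4 at Sall1 and 1 at Tdh. As many as 4 were found at 6.38% of genes. With low KLF4 they were called at 0 of 3 genes (14.1% of all genes). Of 12192 genes with a position under OSKM, 76.3% had none with low KLF4, and the low KLF4 list held 2284 positions against 14067. Merging midpoints within 400 bp, 4 sites held both a KLF4 peak of JMJD3 cells and a JMJD3 position. They were 1 of 2 sites at Sall4, 2 of 5 at Sall1 and 1 of 2 at Tdh. Of these 4, 1 was at Atp9a, 2 were the nearer Sall1 enhancer and the farthest downstream Sall1 site, and 1 was in the Tdh intron. The share over all sites of the 2 lists was not computed, so the count has no background. The Sall4 enhancer, where both were called, lies outside the window of 50 kb.

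Motif matches were counted in the windows of these peaks. KLF matches were in 2 of 7 windows of KLF4 peaks in JMJD3 cells (33.6% of the whole list) and in 0 of 2 in FLAG cells (35.5%). Of the 6 JMJD3 windows 1 held a KLF match (14.6% of the list), 0 an OCT match (6.75%), 1 a SOX match (18.7%) and 1 an AP-1 match (11.4%).

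Related genes were set beside the members. Of 20 other pluripotency genes, 11 had an H3K27me3 peak near the TSS in WT MEFs (14.6% of all genes), and 8 did in KO MEFs (10.3%). The day 5 numbers were 10 with FLAG (14.7%) and 9 with JMJD3 (11.0%) in WT cells, and 8 (13.7%) and 10 (13.0%) in KO cells. In day 5 WT cells 2 of 10 had a FLAG peak and no JMJD3 peak (31.8% of all genes with a FLAG peak), Nanog, a core pluripotency factor, and Tdgf1, a NODAL co-receptor. Nr0b1 had a peak with JMJD3 only. Kept in both lists were 8, among them Utf1, Lin28a and Esrrb. In day 5 KO cells 0 of 8 had a FLAG peak alone (20.5% of all genes with one), and Nr0b1 and Tfcp2l1 had a JMJD3 peak alone. At day 10 in WT cells 1 of 8, Mycn, had a FLAG peak alone (41.3% of all genes with one). In day 10 KO cells 0 of 8 did (25.1%), with Tbx3 having a JMJD3 peak alone. Counts of 8 genes are too small to set apart from these shares.

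The other spalt genes, Sall2 and Sall3, had a TSS peak in every MEF and day 5 list (10.3% to 14.7% of all genes). At day 10 Sall3 kept one in all 4 lists, and Sall2 had one in both FLAG lists and in neither JMJD3 list, where 41.3% of all genes with a FLAG peak in WT cells and 25.1% in KO cells had none with JMJD3. Of 7 genes for threonine and glycine catabolism, 4 had a TSS peak in WT MEFs (Gcat, Gldc, Gcsh and Shmt2), against 14.6% of all genes. Those of Gcat and Gcsh scored 6.62 and 6.71, at percentiles 1.54 and 4.13. GCAT acts directly after TDH. At day 5 all lists had 2 of 7, Gldc, a subunit of the glycine cleavage system, and Shmt2, which converts serine and glycine. The shares of all genes were 14.7% (WT FLAG), 11.0% (WT JMJD3), 13.7% (KO FLAG) and 13.0% (KO JMJD3). At that day no gene was lost or gained with JMJD3. Over all genes with a FLAG peak at day 5, 31.8% in WT and 20.5% in KO cells had none with JMJD3. At day 10 Shmt2 had a score of 38.52 in WT FLAG cells and no peak in WT JMJD3 cells (41.3% of all genes with a FLAG peak). In day 10 KO cells Gldc and Shmt2 had a peak under both vectors, where 25.1% of genes with a FLAG peak had none with JMJD3.

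The genes whose best percentiles were most like those of each member over the 10 lists were found among genes that share no peak with it. For Sall4 they were Ndrg4, Kbtbd11 and Sgpp2, with mean absolute differences of 7.97, 8.34 and 8.45 percentile points. For Sall1 they included Tcf20 (7.98) and Syt13 (8.15). For Tdh they were Hist3h2ba and Hist3h2a, both on chromosome 11 and at 1.96 each, and Slain1 (3.41). Genes that share peaks with each other were not left out, so the histone genes need not be separate matches.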

How the data were processed

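Peak lists of 14 of 20 samples were used (10 H3K27me3, 2 KLF4, 2 JMJD3), and 6 samples were not used here. The methods say that the authors mapped reads on mm10 with bowtie2 (Bowtie2 2.2.0 in the submitters' processing notes). Peaks were called for each library, by DFilter (H3K27me3) or MACS2 (KLF4, JMJD3). Chromatin of Drosophila S2 cells was mixed in as a spike-in, and the methods say that mouse H3K27me3 reads were scaled by the mapped Drosophila reads. They do not say if the scaled reads were those given to the peak caller. The deposited H3K27me3 lists hold intervals of 1000 bp with a score; starts lie on a grid of 50 bp within each list and chromosome. The deposited KLF4 lists hold intervals and the deposited JMJD3 lists 1 bp positions, both without a score. Read depth is not part of the lists and was not used here, and a deeper library can give more peaks. Labels name lentiviral transfection, and the protocol names retrovirus.

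Positions were compared with TSSs of GENCODE M21 basic protein-coding transcripts and the RefSeq GRCm38.p6 genome, the build of mm10; 0 peaks lay beyond a chromosome end. A TSS peak overlapped the TSS ± 5 kb. KLF4 and JMJD3 were counted in the gene and 50 kb on each side, and listed to 100 kb. Study primers were matched exactly on both strands. Of the members, the promoter table held Sall1. Named genes were the members, the fixed lists, neighbours whose TSS was nearer a peak, and the 3 most alike genes, of which 1 is not reported here. Members, lists and tests were chosen with earlier results of these data known. Searches were tested on simulated data. Python 3.11.15, numpy 2.4.6, pysam 0.24.0, samtools 1.23.1 and matplotlib 3.10.9 were used. Alternatives covered window size, score, list length, TSS choice, peak width and merging distance.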

Additional observations from a re-analysis of the deposited data

Results flagged for a closer look

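Each of these is a difference between JMJD3 and FLAG cells in the best H3K27me3 score near the TSS that had opposite signs in a pair of settings with 1 library each. None of the differences was tested. By score at day 5, Sall4 changed by -49.33 in WT and by 19.54 in KO cells, a gap of -68.87. Tdh changed by -18.89 in WT and 5.05 in KO cells, a gap of -23.94, with the WT JMJD3 cells taken at 0 for want of a peak. Sall1 changed by -1.92 and 2.71, a gap of -4.63. In KO cells the day 5 and day 10 changes by score were 19.54 and -15.21 for Sall4, a gap of 34.75, and 2.71 and -10.64 for Sall1, a gap of 13.35.

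By percentile within the list, a gene without a peak was also taken at 0, which applies to Tdh in day 5 WT JMJD3 cells and to Sall1 in day 10 WT JMJD3 cells. Tdh changed at day 5 by -63.15 points for WT and 11.83 for KO, a gap of -74.98. Sall1 changed by 0.76 points at day 5 and -46.13 at day 10 in WT cells, a gap of 46.89, and by 1.67 and -42.50 in KO cells, a gap of 44.17. The day 5 changes of Sall1 were under 2 percentile points and opposite in sign to its score in WT cells. Sall4 had no opposite signs by percentile. The comparison by score was added after the data were seen.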

How the results depend on the processing

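Of 90 values recomputed under other settings, 63 stayed within 1.5 times of the reported count and 27 did not. Genes with a FLAG peak and no JMJD3 peak: in day 5 WT cells Tdh was lost from the count (0) with scores of at least 20. In day 10 WT cells the 2 became 1 (Sall4) within 1 kb of the TSS and 0 with scores of at least 20 or the better-scoring 50% of each list. In day 10 KO cells the 0 became 1 within 1 kb (Sall1), 1 with scores of at least 20 (Sall4), and 2 with the better-scoring 50% or with all lists cut to 3045 peaks, so the difference between genotypes at day 10 was absent or turned under those settings. The day 5 KO count stayed at 0.

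Members with a TSS peak became 1 within 1 kb in KO MEFs, day 10 WT FLAG and day 10 KO JMJD3 cells. With scores of at least 20 they became 1 in KO MEFs, in all 4 day 5 lists and in day 10 KO FLAG cells, and 0 in day 10 WT FLAG and KO JMJD3 cells. With lists of 3045 peaks they became 0 in day 10 KO JMJD3 cells. KLF4 peaks around the 3 genes, 2 with FLAG, became 0 within 10 kb and within 25 kb and 6 within 100 kb. With JMJD3, 7 became 4 within 10 kb, 11 within 100 kb and 2 in the wider 50% of the list. FLAG cells also had 2 in the wider 50% of their list, so no gene then had more with JMJD3. The 6 JMJD3 positions with OSKM became 2 within 10 kb. Merging within 200 or 1000 bp changed no count of shared sites beyond 1.5 times.

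No paired analysis was possible because each group had 1 library, so no replicate numbers pair libraries. The FLAG and JMJD3 libraries matched by day and genotype were only set side by side. No group had a library to spare, so none was left out. H3K27me3 peaks are 1000 bp wide and their starts move in steps of 50 bp.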

Other observations

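A further H3K27me3 stretch lay upstream of Tdh, on chromosome 14 from 63585089 to 63586764, centred 76834 bp before its TSS. It was singled out after its values were seen, and was called in 7 of 10 lists. At day 5 its score was 22.07 with FLAG and 28.71 with JMJD3 in WT cells (percentiles 68.4 and 81.3) and 16.07 and 46.3 in KO cells (60.7 and 83.6). It was higher with JMJD3 in both genotypes at day 5, while the Tdh TSS peak was not called in WT JMJD3 cells. The stretch lies nearer to the Mtmr9 TSS than to that of Tdh, and it is not assigned to Tdh. WT MEFs had a score of 33.51 there, and KO MEFs 10.94. Of the day 10 lists, only KO JMJD3 cells had a peak, of 13.86.

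Past 50 kb downstream of Sall4, KLF4 peaks were called with both vectors at 168677732 to 168678054 (FLAG) and 168677719 to 168678092 (JMJD3), with a JMJD3 position of the OSKM list at 168677813, and the nearest TSS was that of Atp9a.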
